A study of Homo sapiens with 18 samples.

Results

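Each RNA of DU145 cells was compared between heavy polysomes and the cytoplasmic lysate from which the polysomes were separated. DU145 is an established line from a metastatic prostate carcinoma. The comparison used the 12 fraction libraries among the 18 of the series: 3 cytoplasmic and 3 polysomal libraries of cells given vehicle, and 3 of each from cells given GC7. GC7 (N1-guanyl-1,7-diaminoheptane) was applied at 40 µM for 24 h and inhibits deoxyhypusine synthase, which starts the conversion of 1 lysine of the translation factor eIF5A to hypusine. All 12 samples also received emetine, an inhibitor of elongation, at 25 µg/ml for 10 min before lysis in hypotonic buffer. Nuclei were pelleted at 750 g and mitochondria at 12000 g, and the remaining cytosolic extract was run on sucrose gradients of 15 to 50%. The authors' deposited table gives 1 mean normalized count per gene and fraction, taken over the 6 libraries of both treatments, and all means below are from it. No value per library was used. The depth of each library is therefore unknown, no SD between replicates can be given, and the labels do not say whether replicates came from separate cultures.

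Polysome enrichment was defined as the log2 ratio of a gene's polysomal to its cytoplasmic mean, after each column was divided by its own sum over all names not starting with MT-. At equal shares, the polysomal mean was 1.254 times the cytoplasmic mean. Of the 15747 genes in the table, 13074 had a cytoplasmic mean of at least 50 and were tested, and the other 2673 lay under this minimum. RGS11, at a cytoplasmic mean of 50.003, lay just inside it with an enrichment of -0.43, and LRRC56, at 49.983, lay just outside with 0.63. Every gene of the table had a polysomal mean of at least 10.1 and a cytoplasmic mean of at least 12.1, so RNAs below those levels in either fraction were not analysed here, and the poorest end is cut short. Errors are standard errors (SE) that cover the spread among libraries within each fraction. The fractions appear as separately normalized columns, and the SE does not cover that step.

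An mRNA that is being translated carries several ribosomes at once, and such polysomes sediment faster than single ribosomes, free RNA or most ribonucleoprotein particles. The share of an RNA in the heavy fractions therefore depends on whether it is translated at all, on how many ribosomes initiate on it, and on how long they take to run through its reading frame. RNAs that work without being translated, such as those of the signal recognition particle, are normally left in the light part of the gradient.

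The enrichment had a median of 0.18 and an SD of 0.58 over the 13074 tested genes, against a median SE of 0.16. A gene was called rich in heavy polysomes at an enrichment of at least 1, and poor at -1 or less, each with an adjusted p under 0.05 (normal test of the ratio, Benjamini-Hochberg over all tested genes). There were 532 rich genes, 4.07% of those tested, and 323 poor genes, 2.47%. Without the size limit, 4694 genes passed above 0 and 1688 below 0. Counts of list members that passed are to be read beside these. The counts depend on how the fractions are scaled to each other: centring on the median left 234 rich and 520 poor genes, and with MT- names in the sums the median was 0.35, with 1026 rich and 214 poor. Of all calls, 62.2% were rich on the main scale, 31.0% after centring, 82.7% with MT- names and 47.3% without ribosomal protein mRNAs in the sums. Rich genes within 0.18 of the limit are those that centring leaves under it. Values of gene groups are therefore also given relative to the median of all genes, which no such scaling changes. The samples are bulk RNA, so fewer cells holding an RNA in polysomes and less of it per cell cannot be told apart.

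**Figure D1:**
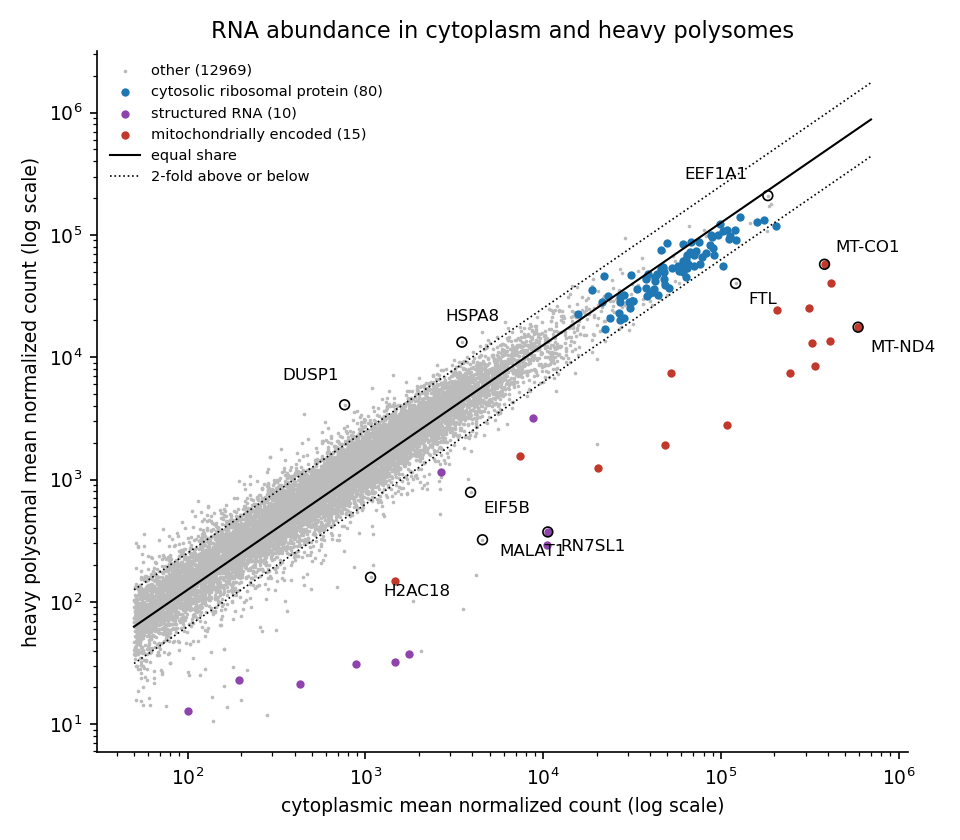
Mean normalized count in cytoplasm (x axis, log scale) and heavy polysomes (y axis, log scale) of the 13074 tested genes, each point 1 gene, with the line of equal share and lines 2-fold above and below it. Mitochondrially encoded and structured RNAs lie far under the line, and cytosolic ribosomal protein mRNAs mostly a little under it.

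The cells' identity was checked against fixed markers. All 8 epithelial markers were in the table, with a summed mean of 81017 in cytoplasm and 53259 in polysomes. Of 8 prostate luminal markers 2 were in it, SLC45A3 among them, and KLK2 and KLK3 were not. Of 7 leukocyte and endothelial markers CD14 and CD68 were present, and of 6 fibroblast markers only one, with a summed cytoplasmic mean of 31.2. Their part in the results below was not tested.

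Structured RNAs that are not translated were among the poorest groups. All 10 that were tested were called poor, from -5.88 for RPPH1, the RNA of ribonuclease P, to -1.54 for the 5S ribosomal RNA gene RNA5S1. RN7SK, which holds back the elongation factor P-TEFb in the nucleus, had a mean of 1469 in cytoplasm and 32.5 in polysomes, an enrichment of -5.83 ± 0.36 (SE). RMRP, the RNA of ribonuclease MRP, stood at -4.65 ± 0.41 (SE), RNU1-1, a U1 spliceosomal RNA, at -3.41 ± 0.33 (SE), and SNORD3A, the U3 RNA of ribosomal RNA processing, at -3.31 ± 0.43 (SE). The 5.8S RNA of the name RNA5-8SN2, a constant part of the large ribosomal subunit, lay at -1.78 ± 0.63 (SE). That pooled value was nearer to equal share than those of the RNAs that are no part of the ribosome. This 5.8S RNA was at -0.76 in vehicle and -2.90 with GC7, rebuilt per treatment as described below. How the libraries treated ribosomal and non-polyadenylated RNA is not given in the sources used here.

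RN7SL1 and RN7SL2, near-identical copies of the RNA of the signal recognition particle, had cytoplasmic means of 10636 and 10552 and polysomal means of 373 and 290. Their enrichments were -5.16 ± 0.49 (SE) and -5.51 ± 0.51 (SE), and reads of either copy may have been split between them. BCYRN1, a primate cytoplasmic RNA that shares its Alu-type 5′ part with them, was at -5.15 ± 0.36 (SE), with 883 in cytoplasm and 31.2 in polysomes. The polysomal share was 35.8-fold lower than the cytoplasmic share for RN7SL1 and 35.5-fold lower for BCYRN1.

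Mitochondrial transcripts, which are translated by mitochondrial ribosomes inside the organelle, were poor without exception among the 15 tested. They made up 11.9% of the summed means in cytoplasm and 0.685% in polysomes. The 13 mRNAs had a median of -3.96, from -5.64 ± 0.43 (SE) for MT-ND2 to -2.57 ± 0.45 (SE) for MT-ATP8. Most subunits of complex I were near the lower end, with MT-ND4 at -5.40 ± 0.41 (SE), MT-ND1 at -5.37 ± 0.47 (SE) and MT-ND3 at -4.999 ± 0.53 (SE). Those of cytochrome c oxidase were less depleted, with MT-CO3 at -3.69 ± 0.48 (SE), MT-CO2 at -3.41 ± 0.38 (SE) and MT-CO1 at -3.06 ± 0.42 (SE), and MT-CO1 had a polysomal mean of 57505 beside 383354 in cytoplasm. MT-CYB, the cytochrome b of complex III, was at -3.96 ± 0.53 (SE), and the complex I subunits MT-ND6 and MT-ND5 were at -3.64 ± 0.21 (SE) and -3.14 ± 0.38 (SE).

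The 2 mitochondrial ribosomal RNAs were at the level of the most depleted mRNAs, MT-RNR1 at -5.62 ± 0.34 (SE) and MT-RNR2 at -5.24 ± 0.37 (SE). Rebuilt per treatment as described below, MT-RNR1 was at -6.31 in vehicle and -3.95 with GC7, and MT-RNR2 at -5.47 and -4.00. The 5 nuclear copies of mitochondrial genes in the table were poor as well, from -6.03 for MTRNR2L1 to -2.04 for MTCO1P12. Reads of such copies and of the mitochondrial genes themselves cannot be cleanly told apart.

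MT-ATP8 and MT-ATP6 are read from 1 bicistronic mRNA, on which their frames overlap by 46 bases, yet their enrichments were -2.57 and -4.96. MT-ATP8 was higher by 2.39 ± 0.66 (SE, taking both errors as independent). Rebuilt per treatment, MT-ATP8 was at -2.33 in vehicle and -4.66 with GC7, and MT-ATP6 at -4.90 and -5.28, so the gap was smaller with GC7, a difference between treatments that was not tested for the pair. MT-ND4L and MT-ND4 share another mRNA with an overlap of 7 bases and were at -4.36 and -5.40, a difference of 1.04 ± 0.58 (SE). The stretch that belongs to both ATP synthase genes is shown because reads in it can be given to either (GRCh38, + strand, chrM:8527-8572), with the start codon of MT-ATP6 in capitals.
MT-ATP8: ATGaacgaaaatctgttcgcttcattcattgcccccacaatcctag

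Long noncoding RNAs with a name other than a clone name had a median near that of mRNAs. These 596 had a median of 0.13, beside 0.20 for 11685 protein-coding genes. They held 17 rich and 19 poor members (2.85% and 3.19%, against 4.04% and 1.62% of the coding genes). Antisense transcripts had a median of 0.11 (244 tested, 3 rich, 7 poor), LINC genes 0.21 (108 tested, 4 rich, 2 poor) and divergent transcripts 0.03 (54 tested, 1 rich, 1 poor). Whether counting used strand is not given in the sources used here, so reads of antisense RNAs and of their partner genes cannot be told apart. Genes known only by a clone name, which are not counted among the 596, were lower, at -0.10. Of these, 77 of 559 were poor, which is 13.8% against 2.47% of all tested genes and makes up 23.8% of all poor genes.

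MALAT1, an abundant RNA of nuclear speckles, was the poorest of the named long noncoding RNAs. Its mean was 4563 in cytoplasm and 322 in polysomes, an enrichment of -4.15 ± 0.32 (SE). NEAT1, the scaffold of nuclear paraspeckles, was at -0.87 ± 0.34 (SE), and NORAD, a cytoplasmic RNA that binds Pumilio proteins, at -0.01 ± 0.36 (SE). Over the 14 tested of 22 RNAs listed as nuclear the median was 0.06, and over 14 of 19 listed as cytoplasmic it was -0.00. Relative to all genes these are -0.12 and -0.19, but with a cytoplasmic mean of at least 200 the nuclear list was at -0.82. TRIM16L, which the annotation gives as a long noncoding gene, was the only named long noncoding gene called rich above a cytoplasmic mean of 500, at 1.02 ± 0.21 (SE), a call that was lost after centring.

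Host genes of small nucleolar RNAs, whose spliced exons often start with a pyrimidine tract and contain only short reading frames, spread widely. Of the 27 tested of 28 listed, which include a few coding hosts, 5 were poor (18.5%, against 2.47% of all tested genes) and none rich, with a median of -0.17, and the median stood at -0.35 relative to all genes. SNHG25 was the poorest, with 696 in cytoplasm and 133 in polysomes and an enrichment of -2.72 ± 0.34 (SE). SNHG9 at -1.46 ± 0.30 (SE), SNHG6 at -1.39 ± 0.22 (SE) and SNHG19 at -1.39 ± 0.24 (SE) followed. GAS5, the most abundant of them at 45400 in cytoplasm, was at -0.89 ± 0.19 (SE), and SNHG20 formed the upper end of the list at 0.71 ± 0.17 (SE). The class of noncoding host genes in the plot by RNA class is a different set, though it also holds 27 genes. That class had a median of -0.13 and a highest value of 1.01, with 4 poor members and 1 rich. Its rich call was lost after centring.

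**Figure D2:**
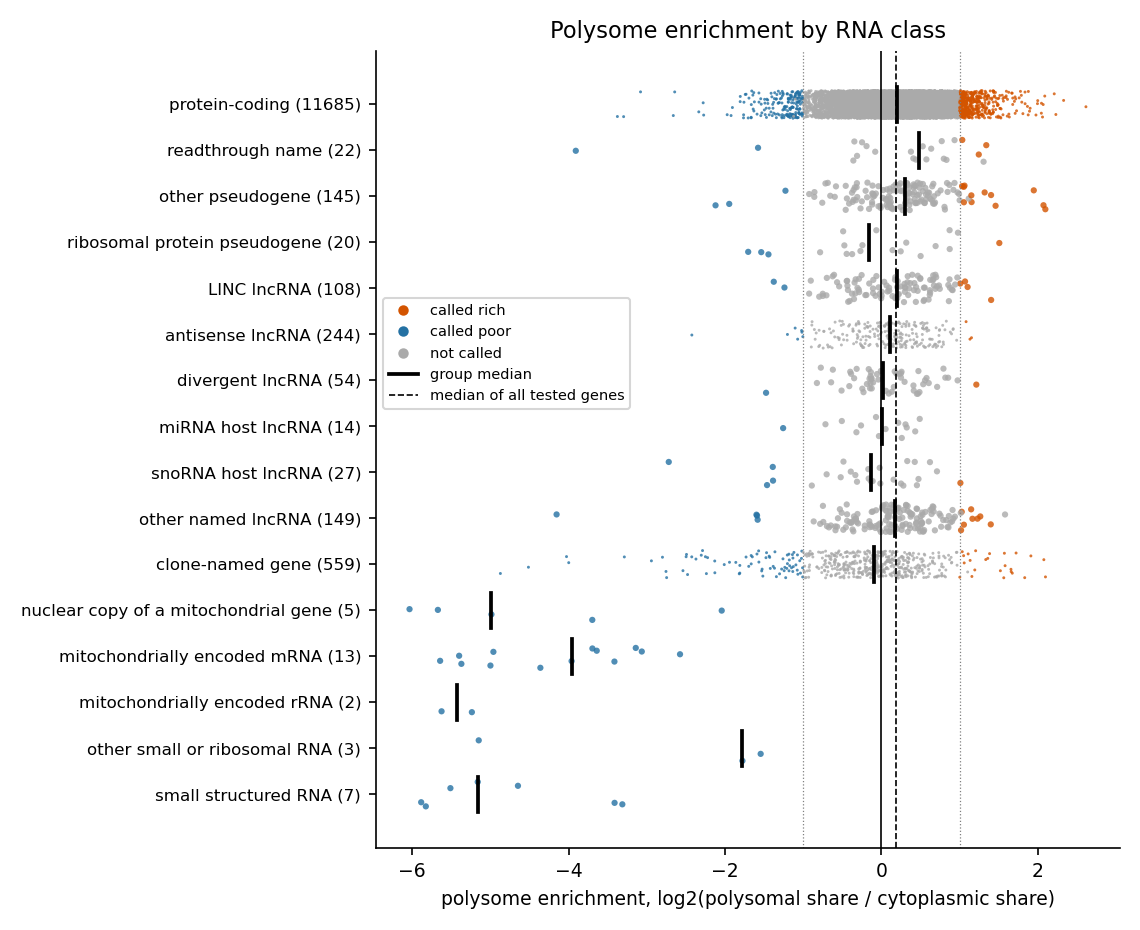
Polysome enrichment (x axis, log2) of each tested gene by RNA class (rows, number of genes in brackets), with the class median as a black bar, the median of all tested genes dashed and the limits of a call dotted. Structured RNAs, mitochondrial RNAs and nuclear copies of mitochondrial genes lie between -6.03 and -1.54, while the long noncoding classes overlap the protein-coding genes.

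Among protein-coding genes with a cytoplasmic mean of at least 500, the 10 richest spanned 1.60 to 2.09. DUSP1, a phosphatase that switches off MAP kinases, led with 765 in cytoplasm and 4083 in polysomes, an enrichment of 2.09 ± 0.29 (SE) or 4.26-fold. IMPA2, an inositol monophosphatase, stood at 2.05 ± 0.17 (SE), DCTPP1, which degrades dCTP, at 2.00 ± 0.19 (SE), and EREG, the growth factor epiregulin, at 1.98 ± 0.39 (SE). MICAL2, an oxidase of actin filaments, MTMR12, LLGL1, a polarity protein, SLC29A1, a nucleoside transporter, CHTF8, a subunit of an alternative clamp loader, and HSPA8, the constitutive HSP70, made up the rest. All 10 remained called after centring on the median.

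The 10 poorest coding genes by the same rule spanned -3.08 to -1.66. The histone gene H2AC18 was lowest, at -3.08 ± 0.35 (SE). EIF5B, the factor that joins the ribosomal subunits at the start codon, had 3912 in cytoplasm and 785 in polysomes and an enrichment of -2.64 ± 0.23 (SE), a share 6.25-fold lower. GNL2, a nucleolar GTPase of ribosome assembly, was at -1.97 ± 0.35 (SE), FTL, the ferritin light chain, at -1.92 ± 0.11 (SE), and CENPE, a kinetochore motor, at -1.76 ± 0.19 (SE). DNTTIP2 at -1.73, THOC2 of the mRNA export complex at -1.69 and NCAPG of condensin at -1.66 followed. EIF3CL at -2.66 and NPIPB12 at -1.74 belong to near-identical copies, and their reads may have been shared with others. All 10 of these calls remained after centring too.

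Cytosolic ribosomal proteins, whose mRNAs start with a 5′ terminal oligopyrimidine (TOP) tract that couples their translation to growth signals, were below the typical gene. Together they made up 19.4% of the summed non-mitochondrial means in cytoplasm and 14.7% in polysomes. The 80 genes had a median of -0.41, or -0.59 relative to all genes, and 74 of them lay under the median of all genes. Of the 80, 44 passed the test below 0 and 4 above it, beside 1688 and 4694 of all 13074 tested genes. Called poor were 2, a share of 2.50% that is near the 2.47% of all genes, and none was rich. Large and small subunit genes had medians of -0.41 each.

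RPLP1, a protein of the ribosomal stalk, was the poorest, with 102587 in cytoplasm and 55758 in polysomes, an enrichment of -1.21 ± 0.16 (SE). RPL37 was the other one called poor, at -1.13 ± 0.24 (SE). At the upper end RPL10A had 21969 and 46262, an enrichment of 0.75 ± 0.16 (SE). RPL41 encodes the shortest of these proteins in a frame of 78 bases, with room for very few ribosomes at a time, but lay at equal share with 0.00 ± 0.17 (SE). The annotated first 25 bases are shown for both ends of the range, with the pyrimidine run at the start in capitals (GENCODE 44, GRCh38).
RPLP1: CCCCTTTCCTCagctgccgccaagg
RPL37: CTCTTCCggtctttctggtctcggc
RPL10A: agtctcttttccggttagcgcggcg
They lie at chr15:69452818-69452842 (+), chr5:40835198-40835222 (-) and chr6:35468401-35468425 (+). The run was 11 bases long in RPLP1 and 7 in RPL37, and the annotated start of RPL10A lies in front of its run. A start with C and a run of at least 5 pyrimidines was annotated for 61 of the 80 genes (76.2%), against 5.67% of 11596 coding genes. Annotated starts are not measured starts.

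The coding sequence of RPL41 follows in full, with start and stop codons in capitals (GRCh38, + strand, chr12:56116788-56117524, spliced).
RPL41: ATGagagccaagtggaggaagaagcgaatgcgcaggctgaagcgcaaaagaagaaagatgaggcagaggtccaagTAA
Among 245 coding genes with a frame of at most 300 bases the median was 0.04, so RPL41 was near the middle of its length class.

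The other mRNAs with a TOP tract were less depleted, at a median of -0.14 over 22 genes, of which 21 lay under the median of all genes. VIM, the intermediate filament vimentin, was at -0.99 ± 0.17 (SE), NPM1, a nucleolar chaperone, at -0.81 ± 0.24 (SE), TPT1 at -0.68 ± 0.14 (SE) and PABPC1, the cytoplasmic poly(A)-binding protein, at -0.61 ± 0.24 (SE). The elongation factors EEF1A1 at -0.14 ± 0.09 (SE) and EEF2 at 0.01 ± 0.29 (SE) did not differ detectably from equal share. Over all coding genes whose annotated first 5 bases are pyrimidines the median was 0.13 (668 genes), and over the others 0.20.

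**Figure D3:**
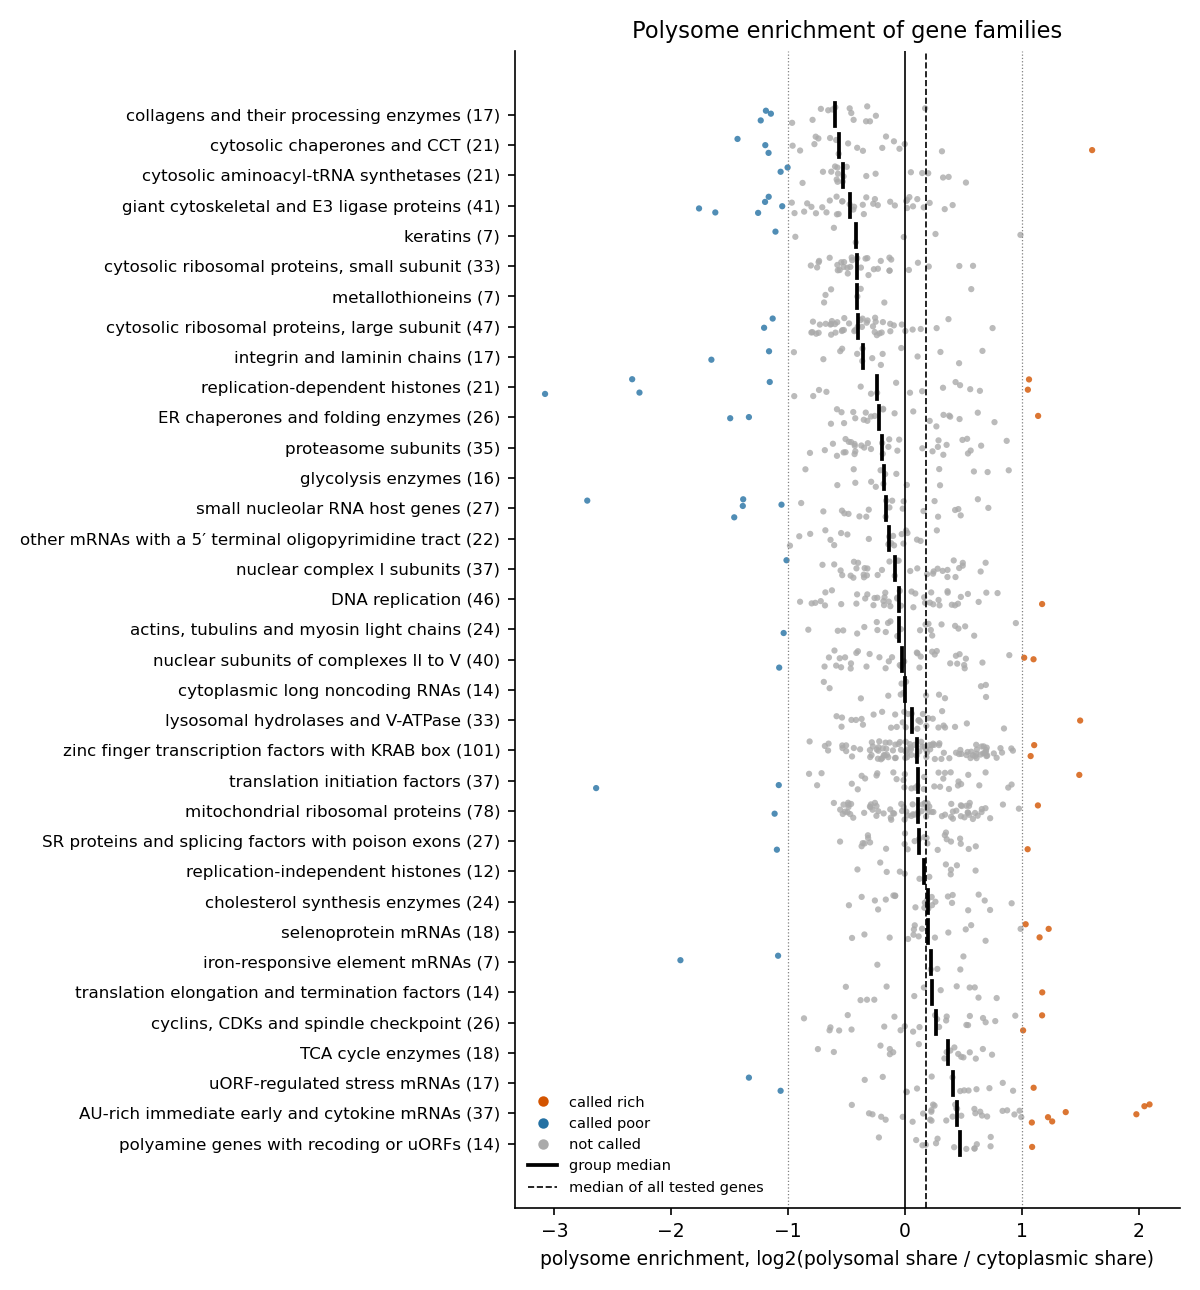
Polysome enrichment (x axis, log2) of each tested member of the gene families described (rows, number tested in brackets), ordered by their medians (black bars), with the median of all tested genes dashed and the limits of a call dotted. Medians run from -0.60 for collagens and their processing enzymes to 0.47 for polyamine genes, and members of most families lie on both sides of 0.

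Translation initiation factors had the widest range among the lists of the translation machinery, from EIF5B at -2.64 to EIF4E at 1.49. Their quartiles were -0.245 and 0.39, closer together than those of elongation and termination factors, at -0.24 and 0.58. EIF4E binds the mRNA cap and is the limiting factor of cap recognition. It had 599 in cytoplasm and 2110 in polysomes, an enrichment of 1.49 ± 0.18 (SE). Of the 37 factors, 16 passed above 0 and 7 below it, with 1 rich and 2 poor. The second poor one was EIF3C, at -1.08 ± 0.34 (SE), whose reads may be shared with its near-identical copy EIF3CL at -2.66 ± 0.49 (SE). EIF3A stood at -0.82 ± 0.21 (SE). Of 13 subunits of eIF3, the scaffold of the small subunit, 12 were under the median of all genes. EIF1 at 0.63 ± 0.11 (SE), DENR, a factor of reinitiation, at 0.91 ± 0.17 (SE) and EIF4G2 at 0.69 ± 0.23 (SE) were on the upper side.

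EIF5A, the target of the pathway that GC7 blocks, had 48116 in cytoplasm and 74228 in polysomes, an enrichment of 0.30 ± 0.10 (SE). Its paralog EIF5A2 was also at 0.30, with an SE of 0.25. DHPS, the enzyme inhibited by GC7, was at -0.16 ± 0.21 (SE), and DOHH, the second enzyme of hypusine synthesis, at 0.16 ± 0.18 (SE). None of the last 3 passed the test. GTPBP2, a rescue factor of stalled ribosomes, was the only rich gene among 14 elongation and termination factors, at 1.17 ± 0.16 (SE). Its call was lost after centring.

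Aminoacyl-tRNA synthetases of the cytosol, which load tRNAs with amino acids, were listed together with AIMP1 and AIMP2, scaffolds of their complex, and were low with a median of -0.53 over 21 genes, or -0.72 relative to all genes and -0.72 relative to genes of like coding length. EPRS1, which charges glutamate and proline tRNAs, was at -1.07 ± 0.18 (SE) and RARS1, for arginine, at -1.01 ± 0.13 (SE). Of the 21, 12 passed below 0, beside 1688 of all 13074 tested genes. SARS1 at 0.52 ± 0.19 (SE), YARS1 at 0.37 ± 0.13 (SE) and the scaffold AIMP2 at 0.32 ± 0.11 (SE) passed above 0. They were the only 3 to do so, beside 4694 of all tested genes.

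Cytosolic chaperones had a median of -0.57 over 21 genes and held contrasts between related genes. HSPA8 had 3496 in cytoplasm and 13283 in polysomes, an enrichment of 1.60 ± 0.34 (SE). HSPA4, an HSP110-type exchange factor, had 5584 and 2592, at -1.43 ± 0.24 (SE), and HSP90AA1, an HSP90, was at -1.20 ± 0.15 (SE). HSPA1A and HSPA1B, near-identical stress-inducible HSP70 genes, were at -1.17 and -0.16 with a difference of -1.004 ± 0.32 (SE), but reads can be split between them. All 8 subunits of CCT, the ring-shaped folding machine for actin and tubulin, were under the median of all genes. Of the 8, 5 passed below 0, beside 1688 of all 13074 tested genes. Among them were CCT3 at -0.96 ± 0.21 (SE) and CCT8 at -0.90 ± 0.21 (SE).

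Chaperones of the endoplasmic reticulum lay on both sides of 0. HSP90B1 at -1.496 ± 0.14 (SE) and HSPA5, the reticulum's HSP70, at -1.34 ± 0.14 (SE) were poor. MANF, a small secreted stress protein, was rich at 1.14 ± 0.21 (SE), a call that was lost after centring. HERPUD1, of protein degradation at the reticulum, reached 0.76 ± 0.10 (SE). Of the 26 genes, 8 passed above and 8 below 0, beside 4694 and 1688 of all 13074 tested genes, with a median of -0.22.

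Ferritin mRNAs, which iron regulatory proteins repress by binding an iron-responsive element in the 5′ UTR, were poor and precisely measured. FTL had 121111 in cytoplasm and 40087 in polysomes, an enrichment of -1.92 ± 0.11 (SE), a share 3.79-fold lower. FTH1 had 180962 and 106854, at -1.09 ± 0.11 (SE), and the light chain was lower by 0.84 ± 0.16 (SE). The 30 bases around the loop of the element are shown for both, with the letters CAGTGN that follow CAA in capitals (GRCh38, chr19:48965335-48965364 on the + strand and chr11:61967573-61967602 on the - strand).
FTL: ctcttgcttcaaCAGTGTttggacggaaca
FTH1: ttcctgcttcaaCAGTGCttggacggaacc
The string CAACAGTGN was present on the sense strand of the 5′ UTR in 18 of 11596 coding genes, 0.155%. The other 5 tested mRNAs listed for such elements did not pass below 0. EPAS1, a hypoxia factor, was at 0.47 ± 0.20 (SE), and TFRC, the transferrin receptor, whose elements lie in its 3′ UTR, at 0.28 ± 0.31 (SE).

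Stress mRNAs listed for regulation by upstream open reading frames (uORFs), short frames in the 5′ UTR that most ribosomes meet first, were mixed. ATF4, which switches on genes of the integrated stress response, had 31518 in cytoplasm and 39824 in polysomes, and its enrichment of 0.01 ± 0.15 (SE) was that of an equal share. DDIT3 was at 0.01 ± 0.15 (SE) too, PPP1R15A, which restores initiation after stress, at 0.50 ± 0.13 (SE), and SLC35A4, with 11 AUG codons in its annotated 5′ UTR, at 0.92 ± 0.12 (SE). Of 17 genes, 9 passed above 0 and 2 below, beside 4694 and 1688 of all 13074 tested genes, and the median was 0.41. Those below were HSPA5 and EPRS1, whose annotated 5′ UTRs hold no AUG codon. NDRG1, also annotated without one, was the only rich member, at 1.10 ± 0.13 (SE), a call that was lost after centring.

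Genes of polyamine synthesis and its control, several of which are regulated by uORFs or by a programmed frameshift, leaned to the rich side. Their median was 0.47 over 14 genes, 0.29 above that of all genes. Of the 14, 9 passed above 0 and none below, beside 4694 and 1688 of all 13074 tested genes. ODC1, the first enzyme of the pathway, was called rich, with 5541 in cytoplasm and 14749 in polysomes and an enrichment of 1.09 ± 0.29 (SE), a call that was lost after centring. OAZ1, the antizyme made by frameshifting, was at 0.52 ± 0.15 (SE), OAZ2 at 0.59 ± 0.11 (SE) and SAT1, which acetylates polyamines for export, at 0.26 ± 0.11 (SE). AMD1, which makes the aminopropyl donor, was at 0.73 ± 0.15 (SE), with 1270 and 2643. Its uORF is printed because it is the textbook case of a frame at which polyamines stall ribosomes (GRCh38, + strand, chr6:110874796-110874816, start and stop codons in capitals).
AMD1: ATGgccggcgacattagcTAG
The frame is 21 bases long, and the mRNA's polysomal share was 1.66-fold its cytoplasmic share.

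Selenoprotein mRNAs decode an internal UGA as selenocysteine, which is slow and competes with termination. Over 18 genes their median was 0.20, which is that of coding genes. Of the 18, 9 passed above 0 and 1 below, beside 4694 and 1688 of all 13074 tested genes. SELENOF at 1.23 ± 0.18 (SE), SEPHS2, the selenophosphate synthetase, at 1.15 ± 0.18 (SE) and SELENON at 1.03 ± 0.10 (SE) were rich. That is 16.7% of the list, against 4.07% of all tested genes, and SELENOF alone remained rich after centring. GPX4, the lipid peroxidase that guards against ferroptosis, was at 0.07 ± 0.14 (SE), and SELENOW, the short member at the low end, at -0.45 ± 0.15 (SE). The 33 bases around the selenocysteine codon, in capitals, are shown for 2 of the rich members and the lowest one (GRCh38, chr1:86880675-86880707 on the - strand, chr16:30445533-30445565 on the - strand and, across an intron, chr19:47778807-47780749 on the + strand).
SELENOF: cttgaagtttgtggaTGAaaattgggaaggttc
SEPHS2: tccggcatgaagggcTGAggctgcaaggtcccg
SELENOW: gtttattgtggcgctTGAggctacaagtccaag

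Replication-dependent histones, which are made in S phase from short mRNAs that end in a stem-loop in place of a poly(A) tail, held values at both ends. Of the 50 genes listed, 21 passed the minimum, and these ran from H2AC18 at -3.08 to H4C14 at 1.06. H2AC18 had 1070 in cytoplasm and 159 in polysomes. H2BC18 had 102 and 25.5, an enrichment of -2.33 ± 0.37 (SE), H1-4 was at -2.27 ± 0.38 (SE) and H2AC20 at -1.16 ± 0.30 (SE). H4C14 at 1.06 ± 0.29 (SE) and H2BC12 at 1.05 ± 0.18 (SE) were rich, and both calls were lost after centring. Genes of the same histone type are close copies, so the split of reads between them is uncertain. The 12 tested histones outside S-phase control, with ordinary poly(A) tails, were narrower, from -0.41 to 0.60, with H2AZ1 at the top at 0.60 ± 0.13 (SE).

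Large proteins of the cell matrix and the cytoskeleton were on the poor side. The 17 collagens and collagen enzymes had a median of -0.60, or -0.78 relative to all genes, and all 17 lay under the median of all genes. COL18A1 had 1949 in cytoplasm and 1039 in polysomes, at -1.24 ± 0.17 (SE), and COL6A1 at -1.19 ± 0.20 (SE) and COL4A1 at -1.15 ± 0.19 (SE) were also poor. Measured against coding genes of like length the median was -0.65. Enzymes of collagen processing such as PLOD3, a lysyl hydroxylase, at -0.79 ± 0.20 (SE) were low as well, but SERPINH1, the collagen chaperone, at -0.25 ± 0.14 (SE) did not pass. Among laminins LAMB1 at -1.66 ± 0.26 (SE) and LAMB2 at -1.16 ± 0.27 (SE) were poor, and integrin chains had a median of -0.24, with ITGB5 at 0.66 ± 0.17 (SE).

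Giant proteins, with a median coding length of 12924 bases, had a median of -0.47 over 41 genes. None passed above 0 and 23 passed below, beside 4694 and 1688 of all 13074 tested genes. Called poor were 6 (14.6%, against 2.47% of all tested genes), and 10 after centring, when 520 of all tested genes were. CENPE and CENPF, both of the kinetochore, were lowest at -1.76 ± 0.19 (SE) and -1.62 ± 0.18 (SE), and MKI67, the proliferation antigen, was at -1.05 ± 0.13 (SE). The large scaffold proteins AHNAK and AHNAK2 have frames of 17673 and 17388 bases and were at 0.01 ± 0.14 (SE) and -1.17 ± 0.12 (SE). Against genes of its length classes the list's median was -0.37. The longest class is open above 4800 bases and has a median coding length of 6214.5 bases, so length is not fully matched for this list.

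Keratins, the intermediate filaments of epithelia, had a median of -0.42 over 7 tested genes. The most abundant, KRT7, had 47928 in cytoplasm and 44854 in polysomes, and its enrichment of -0.42 ± 0.26 (SE) did not pass the test. KRT8 was poor at -1.11 ± 0.17 (SE) and KRT18 was at -0.94 ± 0.21 (SE), while KRT80 was at 0.99 ± 0.18 (SE).

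Immediate early genes and cytokines, whose unstable mRNAs carry AU-rich elements in the 3′ UTR, formed the list with the most rich members. Of 37 tested, 7 were rich and none poor, which is 18.9% against 4.07% of all genes, and all but EGR1 remained after centring. The median was 0.44, or 0.26 above all genes, and 24 passed above 0 with only DUSP6, at -0.46 ± 0.14 (SE), below. Of all 13074 tested genes, 4694 passed above 0 and 1688 below. KLF4, a zinc finger factor, had 107 in cytoplasm and 552 in polysomes, an enrichment of 2.05 ± 0.32 (SE). KLF10 was at 1.37 ± 0.27 (SE), ZFP36L1, which itself binds AU-rich elements, at 1.26 ± 0.15 (SE), MYC at 1.22 ± 0.22 (SE) and EGR1 at 1.08 ± 0.19 (SE). FOS was just under the limit at 0.98 ± 0.19 (SE). The nonamer TTATTTATT in the annotated 3′ UTR went with little: the median was 0.19 over 10581 coding genes without it, 0.26 over 843 with 1 and 0.25 over 261 with 2 or more (sense strand, overlapping matches counted).

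Cell cycle genes were mostly near the typical gene, with a median of 0.26 over 26 cyclins, kinases and checkpoint genes. PLK1 at 1.01 ± 0.18 (SE) and MAD2L1, of the spindle checkpoint, at 1.17 ± 0.19 (SE) were rich, and the checkpoint kinase TTK was at -0.87 ± 0.17 (SE). Of 46 replication genes only TYMS, thymidylate synthase, was called, at 1.17 ± 0.22 (SE). None of these 3 rich calls remained after centring.

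Nuclear genes of mitochondria lay far from the mitochondrial transcripts with which their products assemble. The 37 complex I genes had a median of -0.09 and the 40 genes of the other complexes -0.03. SDHC at 1.10 ± 0.15 (SE) and UQCRFS1, the Rieske protein, at 1.02 ± 0.23 (SE) were rich, and both calls were lost after centring. NDUFB1 at -1.01 ± 0.30 (SE) and ATP5ME at -1.08 ± 0.26 (SE), with frames of 177 and 210 bases, were poor. The 78 mitochondrial ribosomal proteins had a median of 0.11, far above the -0.41 of their cytosolic counterparts, with MRPL37 at 1.14 ± 0.10 (SE) and MRPS31 at -1.12 ± 0.23 (SE) as the ends of the range. Citric acid cycle enzymes leaned up, at a median of 0.37 over 18, with CS, citrate synthase, at 0.74 ± 0.14 (SE).

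Glycolytic enzymes had a median of -0.18 over 16, from PKM at -0.85 ± 0.17 (SE) to PGAM1 at 0.89 ± 0.14 (SE), and none was called. Proteasome subunits had a median of -0.20 over 35 and no call. Of these, 7 passed above and 12 below 0, beside 4694 and 1688 of all 13074 tested genes. Metallothioneins and their activator were at -0.41 over 7, cholesterol genes at 0.19 over 24, zinc finger factors with a KRAB box at 0.10 over 101, and lysosomal genes at 0.06 over 33. In the last list ATP6V0D1, of the proton pump, was rich at 1.497 ± 0.29 (SE). Splicing factors had a median of 0.12 over 27, with HNRNPH1 rich at 1.05 ± 0.16 (SE) and HNRNPU poor at -1.10 ± 0.13 (SE). The call of HNRNPH1 was lost after centring.

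The enrichment varied with the length and content of the mRNA, as annotated for 1 reference transcript per gene. By coding length, the median was 0.04 up to 300 bases, highest at 0.29 between 603 and 1200 bases, and -0.10 above 4800 bases. Poor genes made up 0.513% of the 3316 genes at the peak and 6.07% of the 560 longest. By 3′ UTR length, the quintile with 404 bases or less had a median of -0.06 and 75 poor genes of 2338, and the others had 0.18 to 0.32 with 18 to 36 poor. By upstream AUG codons the median was 0.13 without any (7033 genes), 0.26 with 1, 0.29 with 2 and 0.33 with 3 or more (1382 genes). These differences are small beside the quartiles within each group. Across the 11685 coding genes, which are not independent replicates, Spearman's rho with the enrichment was -0.14 for coding length, 0.19 for 3′ UTR length, 0.16 for upstream AUG codons and -0.13 for the cytoplasmic mean, which is itself the denominator of the ratio. Runs of 3 or more proline codons, at which ribosomes need eIF5A, went with no difference in the median, which was 0.20 over 8625 genes without a run and 0.20 over 556 with 3 or more. Genes with 3 or more runs had longer frames, with a median of 3094.5 bases against 1239, and relative to genes of like length the medians were 0.10 and -0.01.

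**Figure D4:**
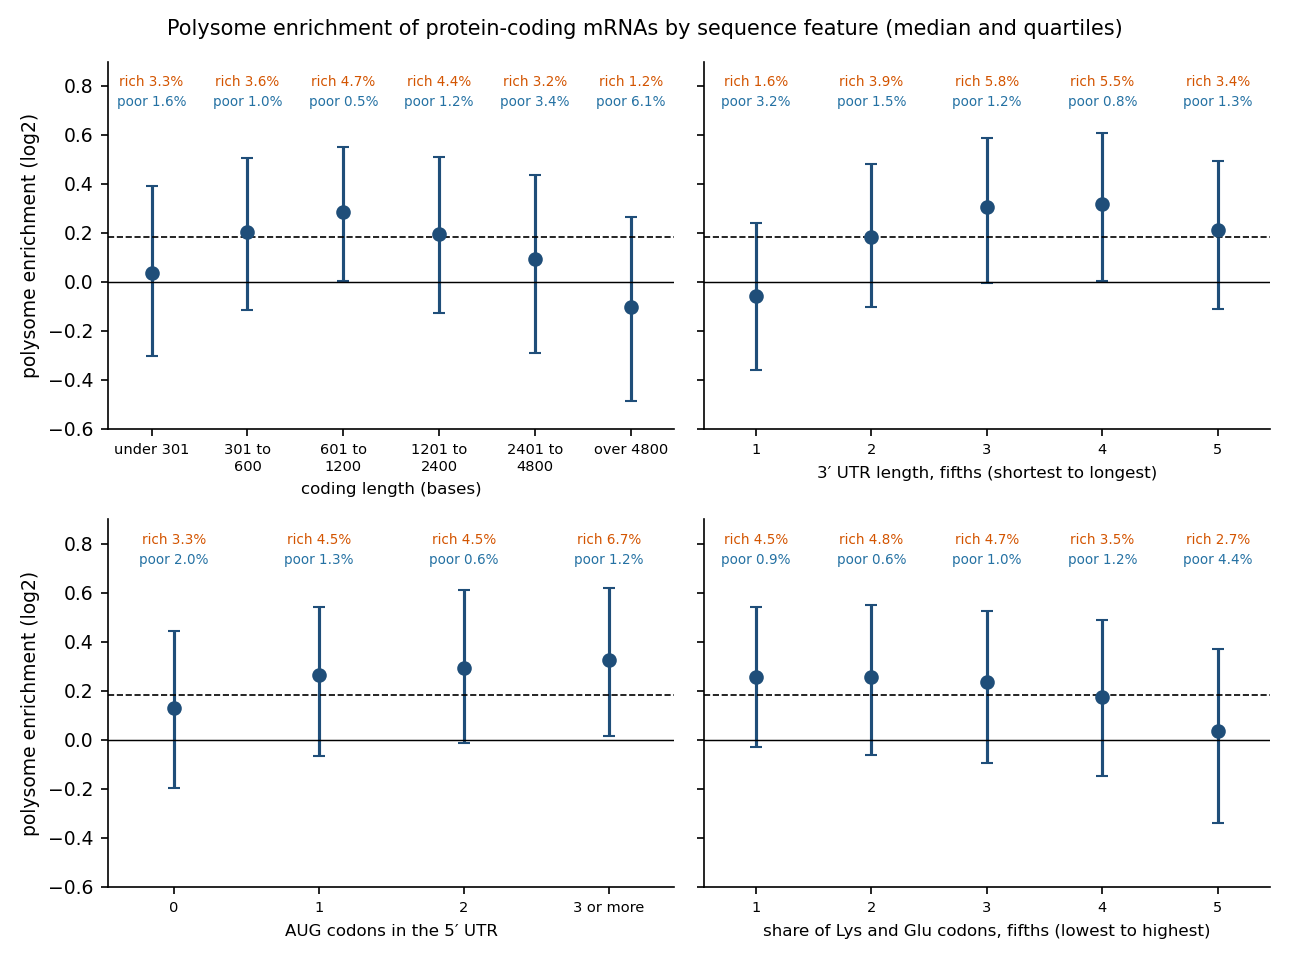
Median polysome enrichment (points, y axis in log2) with quartiles (bars) of protein-coding genes by coding length, 3′ UTR length, upstream AUG codons and share of lysine and glutamate codons (x axes), with the share of rich and poor genes above each bin. The median peaks at 0.29 for frames of 603 to 1200 bases and is lowest for the longest frames and the shortest 3′ UTRs, and the highest quintile of lysine and glutamate codons holds the largest share of poor genes of its panel, 4.40%.

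Coding genes called poor held many codons for lysine and glutamate, a feature that was looked at after several of the poorest genes had been seen. The median share of these codons was 17.5% in the 189 poor, 12.2% in the 472 rich and 12.9% in the other coding genes. The highest quintile, with 16.7% or more, held 102 poor genes of 2319, which is 54.0% of all poor coding genes, against 14 to 28 in each other quintile. The quintile's median was 0.04, beside 0.17 to 0.26 in the others, and against genes of like coding length it was -0.15. The same quintile held 88 poor of 1724 genes with a coding GC content at or below the median and 14 of 595 above it. By coding length it held 18 poor genes of 125 above 4800 bases, 45 of 379 in the next shorter class and 29 of 771 in the one below, but 6 of 626 between 603 and 1200 bases. Among frames of 303 to 600 bases the medians of the highest and lowest quintile were 0.174 and 0.176. EIF5B reached 29.9% of such codons and CENPE 26.5%. RBM25 and PPIG, both of splicing, at -1.66 ± 0.15 (SE) and -1.64 ± 0.23 (SE), had 27.8% and 24.8%. The 20 codons densest in lysine and glutamate are shown for EIF5B, RBM25 and PPIG, with these codons in capitals (GRCh38, + strand, chr2:99363662-99363721, chr14:73110876-73110935 and chr2:169630908-169630967).
EIF5B: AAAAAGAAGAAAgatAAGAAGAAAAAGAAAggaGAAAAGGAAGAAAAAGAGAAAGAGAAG
RBM25: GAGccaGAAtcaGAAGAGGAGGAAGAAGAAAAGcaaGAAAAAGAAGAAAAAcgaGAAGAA
PPIG: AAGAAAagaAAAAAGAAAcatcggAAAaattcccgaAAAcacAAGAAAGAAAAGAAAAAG
They hold 18, 16 and 13 such codons of 20. Not all genes of this kind were low: RPL41, with 26.9%, lay at equal share.

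Because the means pool both treatments, the enrichment was also rebuilt for vehicle and GC7 libraries from the deposited fold changes, taking those the authors mark as UP to be higher with GC7. Over the tested genes the median was 0.22 in vehicle and 0.15 with GC7, and the SD was 0.67 and 0.53. Across genes the values had a Spearman correlation of 0.85 and a Pearson correlation of 0.87, as a description, since both share the gene's pooled mean. The vehicle libraries alone gave 1033 rich and 421 poor genes, and the GC7 libraries 233 and 230. No gene passed a test of the difference between treatments (normal test on the deposited fold changes of both fractions, smallest Benjamini-Hochberg adjusted p 0.971). Of 13043 genes, 299 (2.29%) had an unadjusted p under 0.05. A well-calibrated test gives a share near 0.05 when nothing differs, so this one was conservative. It took the fractions as independent, and it does not show that the treatments were alike. Ribosomal proteins had medians of -0.43 and -0.39, mitochondrial mRNAs -3.91 and -4.66, and the 6 listed structured RNAs -4.60 and -6.19. AU-rich mRNAs were at 0.63 and 0.33, with DUSP1 at 2.67 and 1.64 and MYC at 1.81 and 0.79. EIF5B at -2.80 and -2.45 and FTL at -1.86 and -1.98 lay under -1 with either.

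**Figure D5:**
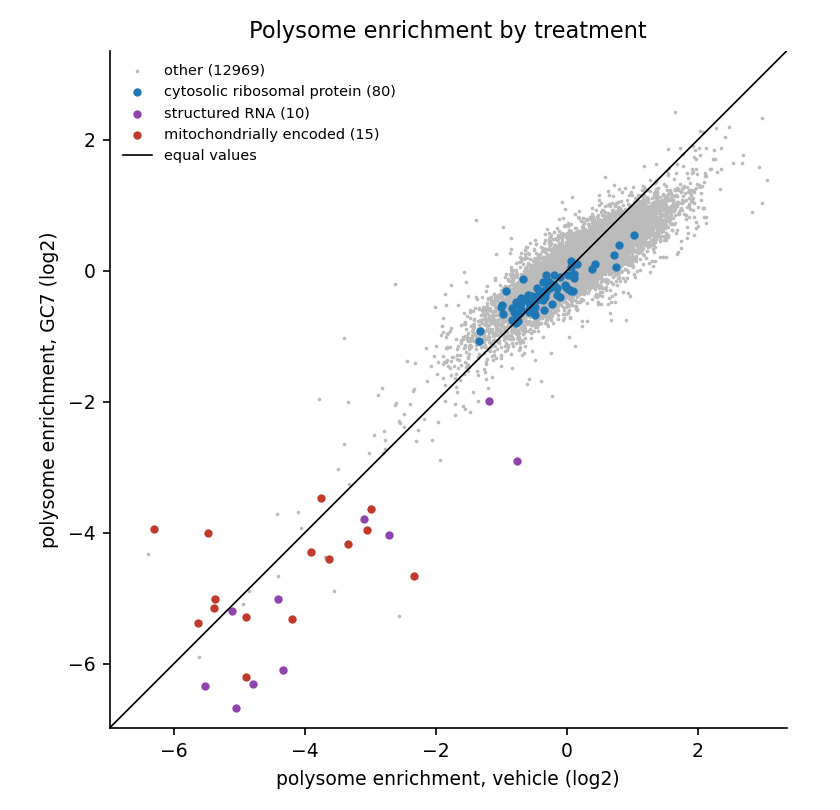
Polysome enrichment rebuilt for vehicle (x axis, log2) and GC7 (y axis, log2) of the 13074 tested genes, each point 1 gene, with the line of equal values. Most genes follow the line with a smaller spread under GC7 (SD 0.53 against 0.67), and mitochondrial and most structured RNAs are at the low end under either treatment.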

How the data were processed

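The members and gene lists were chosen with earlier results of these data known, and no list was tested as a set. GRCh38, Salmon 1.4.0 and STAR 2.7.8a are named, per the submitters' processing notes, and their roles are not given in the sources used here. Per the file headers, the authors deposited for each fraction a mean normalized count over 6 libraries (a score with no fixed total), a log2 fold change of GC7 against vehicle with its SE, and a p-value. Of the names, 1373 hold a comma where a point belongs, and 2 read as dates. Counts per library were not used, so the planned count models and the omission of single libraries were not run.

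The deposited log2 fold changes are shrunken. They were unshrunk with a Cauchy prior (scale 0.195 for cytoplasm, 0.205 for polysomes, fitted to the deposited p-values, with z within 0.1 for 97.4% and 99.5% of genes). For 73 and 9 genes off by over 0.5 the deposited values were kept. The dispersion that this SE implies gave the variance of each mean. Fractions were taken as independent, though a lysate and its gradient may be paired. Ratios were tested against 0 by a normal test with Benjamini-Hochberg adjustment (Python 3, pandas, SciPy). The procedure was first tested on generated data with known changes. Those data used the dispersions derived here and independent fractions at a fixed scale. They could therefore not check the scaling between the real fractions or their pairing.

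Lengths and sequences come from the canonical transcripts of GENCODE 44 (GRCh38), matched by symbol for 12495 tested genes, 132 of them through RefSeq synonyms. Named genes were the 10 richest and 10 poorest coding and 5 richest and 5 poorest noncoding called genes with means of at least 500 in cytoplasm and 50 in polysomes, 4 members of each list (the highest, the lowest and the most abundant), and a fixed set. Further members are named beside their list after their values were seen. A few items are not reported here.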

Additional observations from a re-analysis of the deposited data

How the results depend on the processing

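All 10 alternatives that the table allows were run: 3 scalings between fractions, each treatment alone, 3 minimum counts, the deposited SE and a pseudocount of 1. No call changed sign. Rich genes numbered 532 on the main setting, 1026 with MT- names in the sums, 234 after centring on the median, 1033 in vehicle libraries, 233 in GC7 libraries and 349 at a cytoplasmic mean of at least 200. Poor genes numbered 323, and 214 with MT- names and 520 after centring. Of the 855 calls, 557 were kept after centring, 746 with MT- names, 818 in vehicle and 417 with GC7. Of 560 medians of groups relative to all genes, 545 moved by less than the median SE of their members. The 3 scalings and the deposited SE cannot move such a median by construction, and each of these settings adds 56 values to that count. In vehicle alone the medians that moved further were -0.48 for other TOP mRNAs, -0.93 for aminoacyl-tRNA synthetases, -6.11 for mitochondrial rRNAs, -0.59 for proteasome subunits, -1.03 for keratins and -4.82 for structured RNAs. With GC7 they were -0.51 for the synthetases, -4.80 for mitochondrial mRNAs, -4.12 for mitochondrial rRNAs, -0.21 for glycolysis, -0.58 for collagens, -0.35 for keratins and -6.34 for structured RNAs. A minimum of 10 gave -0.39 for keratins, and a minimum of 200 gave -0.82 for nuclear long noncoding RNAs. The cause was not tested. Of 1763 values of single named genes, 81 crossed a limit of the call. No paired analysis was possible because the table holds no value per library. Depth per library is unknown, and 138 tested genes had a polysomal mean under 50.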

Other observations

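Gene families that share the first letters of their symbols were also summarised for protein-coding genes, after their values had been seen and with no test. The RAB family, small GTPases of vesicle traffic, had a median of 0.51 over 60 genes, with 8 rich, 13.3% against 4.07% of all tested genes, and none poor. KLF transcription factors were at 0.69 over 12 genes, with 3 rich (25.0%), of which KLF4 and KLF10 are described above. PTPN phosphatases were at 0.65 over 14 and MAPK kinases at 0.61 over 14, and 13 of the 14 kinases lay above the median of all genes. Charged multivesicular body proteins (CHMP), which cut membranes, were at 0.58 over 11. NBPF genes had the highest median, 1.06 over 11, but they are near-identical copies and the split of their reads is uncertain. At the low end, MCM genes, most of them of the replicative helicase, were at -0.29 over 10 and UTP genes of ribosome assembly at -0.26 over 10.

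Pseudogenes outside the ribosomal protein family had a median no lower than that of coding genes. It was 0.30 over 145, with 12 rich and 3 poor (8.28% and 2.07%, against 4.04% and 1.62% of coding genes). The 20 ribosomal protein pseudogenes had a median of -0.15 and ran from -1.70 for RPS26P19 to 1.51 for RPL21P16. Reads of a pseudogene and of its parent may be exchanged.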
